A study of Mus musculus with 24 samples.

Results

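The 10 circadian clock genes Clock, Per1, Per2, Per3, Cry1, Ciart, Nr1d1, Nr1d2, Dbp and Tef were followed across 24 mRNA libraries of mouse nucleus accumbens. They were taken as the genes of the count table whose Ensembl identifier carries one of these symbols, and they make up 10 of its 55401 genes. The question was whether the groups, or single libraries, differ in these rhythmic transcripts, as they could if tissue had been collected at different times of day.

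There were 4 groups of 6 libraries. SNI Mef2c mice had a tibial spared nerve injury of the left sciatic nerve and AAV8-hSyn-Mef2c-Egfp, a viral vector that carries the transcription factor Mef2c and green fluorescent protein behind the neuronal human synapsin promoter. SNI Gfp mice had the same injury and AAV8-hSyn-Egfp, which carries the fluorescent protein without Mef2c. Sham Mef2c and Sham Gfp mice had the operation with the nerve left intact, with the Mef2c vector and the Egfp vector. The mice were 8 to 9 weeks old, of the strains C57BL/6J and DBA/2J, and were kept on a 12-hour light and dark cycle. Vector was injected into the accumbens of both hemispheres, and the accumbens of both sides was later punched from coronal slices and frozen. The labels do not tie a library to a strain, a sex, an hour of collection or a number of mice, so p-values measure the spread between libraries, which may be technical. The library index numbers run in blocks by group, so that a batch and a group cannot be told apart.

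The mammalian clock is a feedback loop of transcription. CLOCK, or its relative NPAS2 in forebrain, pairs with ARNTL (BMAL1) and switches on genes through E-box DNA elements, among them the period and cryptochrome genes, whose proteins return to block the pair. A further loop runs through the nuclear receptors NR1D1 and NR1D2 (REV-ERB alpha and beta), which repress Arntl, so that Arntl RNA peaks opposite to Nr1d1 and Dbp, while DBP and TEF carry the rhythm on through D-box elements.

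Windows at the starts of these genes were searched for exact letters of the elements of the loop. Elements outside the windows or with other letters are missed, so a gene without a match is not shown to lack them. RefSeq windows (GRCm38.p6) of 300 bases, 250 before and 50 after a transcription start, were held for 9 of the 10 genes, all but Per2. The E-box letters CACGTG, which read the same on both strands, lay in windows of Per1, Cry1, Tef and Ciart, 4 of those 9 genes, against 8.09% of the 27025 genes with a window. The D-box letters TTATGTAA or TTACGTAA, searched on both strands, lay in the window of Per3 only, against 1.23% of all genes. The half-site AGGTCA of the REV-ERB and ROR receptors, also searched on both strands, lay in windows of Clock, Nr1d2 and Per1, against 18.1% of all genes. The matches do not overlap one another, and each is a description of letters. Windows of 4 genes are shown 5′ to 3′ on the gene's strand, with E-box and D-box letters in capitals, for genes whose levels across libraries are compared below: a period gene with 1 E-box, the Per3 window with its D-boxes, a Tef window, and the Ciart window with 3 E-boxes.
Per1, chr11:69098699-69098998, plus strand: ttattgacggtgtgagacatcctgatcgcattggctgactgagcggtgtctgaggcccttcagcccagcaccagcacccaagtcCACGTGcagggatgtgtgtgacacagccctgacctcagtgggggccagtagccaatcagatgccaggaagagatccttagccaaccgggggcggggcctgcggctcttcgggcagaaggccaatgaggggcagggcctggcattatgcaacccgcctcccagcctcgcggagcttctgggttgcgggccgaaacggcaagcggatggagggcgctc
Per3, chr4:151044616-151044915, minus strand: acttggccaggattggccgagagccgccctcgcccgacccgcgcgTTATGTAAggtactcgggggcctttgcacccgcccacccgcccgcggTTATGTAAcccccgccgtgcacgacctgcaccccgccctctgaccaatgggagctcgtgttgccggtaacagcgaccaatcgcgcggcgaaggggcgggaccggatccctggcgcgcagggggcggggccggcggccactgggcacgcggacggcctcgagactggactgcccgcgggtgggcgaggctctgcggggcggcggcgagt
Tef, chr15:81802423-81802722, plus strand: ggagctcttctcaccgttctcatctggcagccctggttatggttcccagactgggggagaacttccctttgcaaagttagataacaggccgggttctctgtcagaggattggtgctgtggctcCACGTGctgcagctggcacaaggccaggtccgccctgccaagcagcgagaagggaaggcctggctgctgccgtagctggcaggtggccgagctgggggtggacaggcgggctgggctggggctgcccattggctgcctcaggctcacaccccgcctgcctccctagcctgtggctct
Ciart, chr3:95882179-95882478, minus strand: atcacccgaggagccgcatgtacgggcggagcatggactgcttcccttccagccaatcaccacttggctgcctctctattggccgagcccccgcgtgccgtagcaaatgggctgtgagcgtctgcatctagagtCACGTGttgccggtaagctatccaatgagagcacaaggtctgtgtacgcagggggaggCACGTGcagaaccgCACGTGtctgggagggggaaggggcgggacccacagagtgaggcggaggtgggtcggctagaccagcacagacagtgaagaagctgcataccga
The Per1 E-box began 166 bases before the start, and the window at another start of Per1 held none. The Tef E-box shown began 127 bases before its start, and the window at the other Tef start held an E-box 138 bases before it. The Ciart E-boxes began 116, 58 and 44 bases before the start, and the Per3 D-boxes 205 and 158 bases before it.

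The libraries held between 25477019 and 36570108 counts, with overlapping ranges in the 4 groups. Mef2c averaged 611 ± 146 CPM (counts over library size, scaled by the trimmed mean of M values, TMM) in SNI Mef2c libraries and 168 ± 39.2 in SNI Gfp libraries, and 243 ± 128 in the libraries labelled Sham Mef2c, against 169 ± 25.9 in Sham Gfp (SD, n = 6 each). The Sham Mef2c libraries ran from 123 to 469 CPM and so overlapped the Sham Gfp range of 139 to 212. All 10 markers of striatal neurons were detected, and their mean level in a library ran from 6.93 to 8.96 on the log2 CPM scale. The library SNI Mef2c 1 stood apart, with the lowest striatal mean of all 24 and the highest mean of 10 cortical neuron markers, 5.59 on the log2 CPM scale, where the lowest library had 1.01.

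The authors' FPKM use gene spans with introns, and strand use in counting is not stated, so reads in stretches shared by genes cannot be assigned with certainty. Per3 (chromosome 4, 151003652 to 151044665, mm10, minus strand) lies wholly within Camta1 on the same strand, and at Camta1's mean density 35.9% of the counts given to Per3 would fall there. Ciart (chromosome 3, 95878503 to 95882251, minus strand) lies within the antisense gene C920021L13Rik, where the same reckoning gives 33.9%. Nr1d1 (chromosome 11, 98767932 to 98775333, minus strand) shares 1075 bases with Thra, a thyroid hormone receptor gene on the plus strand, for 13.6%. Dbp (chromosome 7, 45705088 to 45710203, plus strand) shares 737 bases with Sphk2, for 4.10%. The levels of Per3 and Ciart are uncertain for this reason.

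Per length of gene, Nr1d1 was the most abundant of the 10 and Cry1 the least. On the FPKM scale (fragments per kilobase of gene span, introns included, relative to the library total), Nr1d1 averaged 23.7 ± 1.87, Dbp 18.9 ± 2.48 and Tef 17.2 ± 2.24 over the libraries (SD, n = 24). Per1 followed at 6.41 ± 0.772, Nr1d2 at 3.59 ± 0.266, Ciart at 1.85 ± 0.220 and Clock at 1.34 ± 0.0542. The lowest levels were those of Per3 at 1.22 ± 0.165, Per2 at 0.938 ± 0.137 and Cry1 at 0.456 ± 0.0547 FPKM. Neighbours in this order whose means lay within the sum of their SDs were Dbp and Tef, Clock and Per3, and Per3 and Per2. Long introns lower this measure for genes such as Clock and Cry1, so it is no order of transcripts per cell.

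With all 24 libraries, the spread between libraries was below that of the median gene for 3 of the 10 and above it for 7. The SD of log2 CPM over the 24 libraries was 0.0736 for Clock, 0.109 for Nr1d2 and 0.132 for Nr1d1, below the median of 0.170 over all tested genes with at least 1 CPM. For Per1, Ciart, Cry1, Per3, Dbp and Tef it lay between 0.181 and 0.199, a wider spread than 53.1% to 58.0% of genes. For Per2 it was 0.227, wider than 64.4%. Without SNI Mef2c 1 the SD was 0.0967 for Cry1 and 0.1592 for Per2, against a median of 0.1593. The highest library stood above the lowest by a factor of 1.22 for Clock, 1.66 for Dbp and 1.72 for Ciart. The widest spans, 2.15 for Cry1 and 2.08 for Per2, rested on SNI Mef2c 1, and without it they were 1.38 and 1.49.

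**Figure D1:**
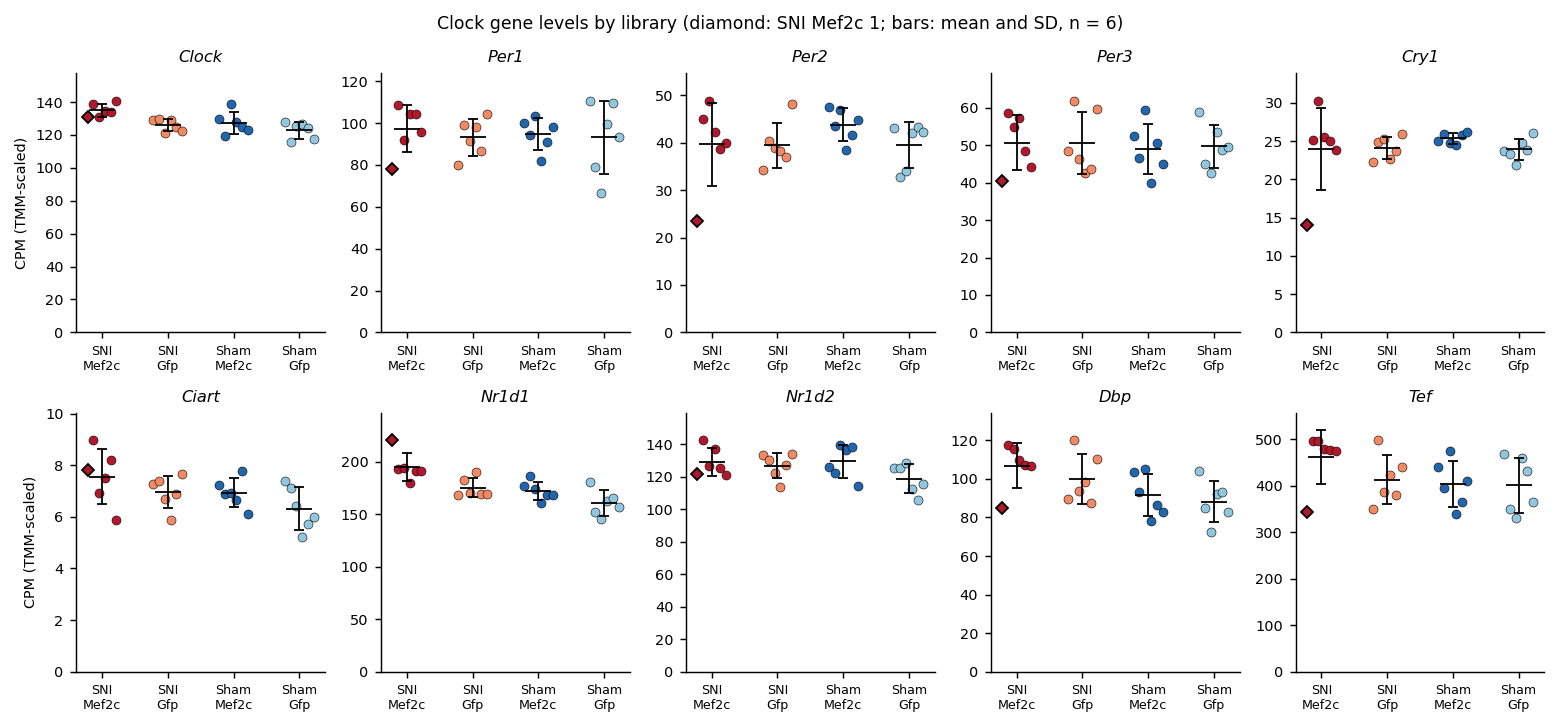
TMM-scaled CPM (y axis, from 0) of each clock gene in the 4 groups (x axis), 1 point per library with the mean and SD of 6 libraries as bars. SNI Mef2c 1, the diamond, is the lowest of all 24 for Per2 at 23.4 CPM and Cry1 at 14.1 CPM and the highest for Nr1d1 at 221 CPM. In the 4 pairwise comparisons groups overlap for every gene except Clock. Its SNI Mef2c libraries lie above those of SNI Gfp, as for 0.329% of all genes tested.

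Group differences were small throughout. Fold changes were tested with edgeR's quasi-likelihood test over 23738 genes, all 4 groups in 1 fit, with Benjamini-Hochberg adjustment over all of them and a threshold of 0.05. Over the 4 pairwise comparisons and the 2 averages, the log2 fold change of largest size among the 10 genes was 0.22 (Dbp, SNI Mef2c against Sham Mef2c). The widest intervals of 2 standard errors reached folds of 0.763 (Per2, SNI Mef2c against Sham Mef2c) and 1.33 (Dbp, the same comparison). The 1 call was Nr1d1, higher with the Mef2c vector when both surgeries were averaged, where 9.15% of all genes passed and 1.28% passed as higher. None of the 10 passed in SNI Mef2c against SNI Gfp (0.00421% of all genes) or in Sham Mef2c against Sham Gfp (9.41%, of which 1.48% higher and 7.93% lower). None passed in SNI Mef2c against Sham Mef2c, in SNI Gfp against Sham Gfp, in SNI against Sham averaged over vectors, or for the interaction of surgery and vector (0.0% of all genes in each by edgeR).

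At an unadjusted p under 0.05, edgeR had 2 of the 10 in SNI Mef2c against SNI Gfp (14.3% of all genes), 1 in Sham Mef2c against Sham Gfp (21.2%), 3 in SNI Mef2c against Sham Mef2c (16.1%) and 1 in SNI Gfp against Sham Gfp (12.3%). It had 2 in Mef2c against Gfp (19.6%), 3 in SNI against Sham (12.9%) and 0 for the interaction (14.9%). DESeq2 and limma-voom also called none of the 10 in the 4 pairwise comparisons and for the interaction. Both called Nr1d1 in SNI against Sham, and both added Clock to Nr1d1 in Mef2c against Gfp. The median log2 fold change of the 10 genes was 0.08 in Mef2c against Gfp averaged over surgeries, against 0.02 over all genes tested. It was 0.05 in SNI against Sham averaged over vectors, against -0.0022 over all genes. Comparisons with a group in common share its libraries, so their values are set side by side and not counted as separate evidence.

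**Figure D2:**
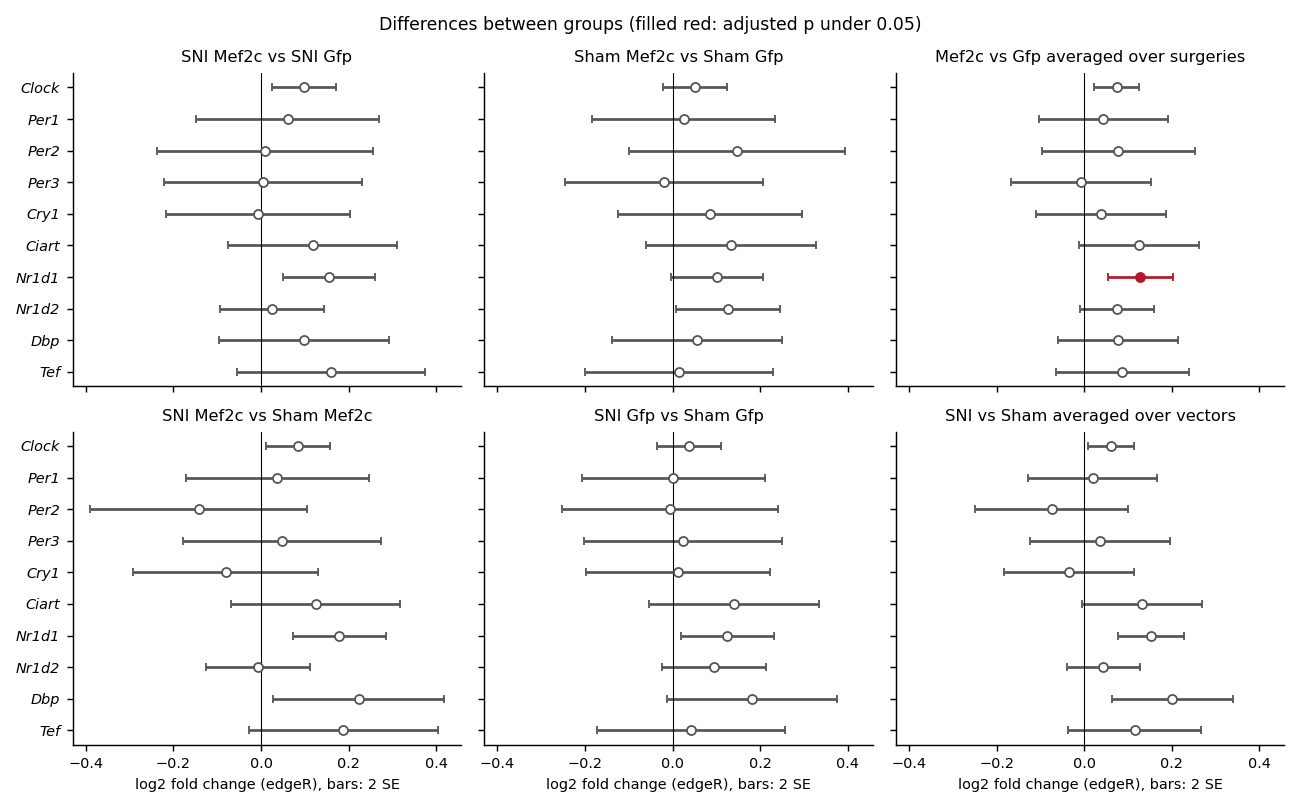
Log2 fold change (x axis) of each clock gene (y axis) in 6 comparisons, points with bars of 2 standard errors from edgeR. The single filled red point is Nr1d1 in Mef2c against Gfp averaged over surgeries, at 0.13, and most bars cross 0.

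Clock, the DNA-binding activator, was the steadiest of the genes. It had 131, 134 and 141 CPM (lowest, median and highest) in SNI Mef2c libraries, against 121, 127 and 129.8 in SNI Gfp. In Sham Mef2c libraries it had 119, 126 and 139 CPM, against 115, 125 and 128 in Sham Gfp. All 6 SNI Mef2c libraries lay above all 6 SNI Gfp libraries, as was so for 0.329% of all genes tested (0.556% in either direction), and the sham groups overlapped. No other clock gene was without overlap in a pairwise comparison. Over all genes the share without overlap, in either direction, was 0.303% in SNI Gfp against Sham Gfp (0.16% higher), 1.1% in SNI Mef2c against Sham Mef2c (0.4% higher) and 5.97% in Sham Mef2c against Sham Gfp (0.758% higher). The log2 fold change in the injured pair was 0.10 (SE 0.04), with an edgeR adjusted p of 0.243, and averaged over surgeries it was 0.07 (SE 0.03), with an adjusted p of 0.0783. That average passed with DESeq2 (adjusted p = 0.0495) and limma-voom (adjusted p = 0.0379), and in edgeR without SNI Mef2c 1 (adjusted p = 0.0465).

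Arntl, the partner of CLOCK, and Npas2, its forebrain relative, did not pass edgeR's test in any comparison. Arntl had 41.9, 44.1 and 54.2 CPM in SNI Mef2c, 36.5, 41.0 and 45.6 in SNI Gfp, 37.2, 42.3 and 55.6 in Sham Mef2c and 36.7, 42.0 and 50.6 in Sham Gfp. Npas2 had 55.5, 118 and 134 CPM in SNI Mef2c, 52.4, 82.8 and 121 in SNI Gfp, 45.6, 82.8 and 113 in Sham Mef2c and 39.2, 98.0 and 121 in Sham Gfp. The groups overlapped widely for both. Npas2 spanned a factor of 3.41 between libraries, with an SD of 0.536 on the log2 scale, a wider spread than 91.4% of genes.

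The period genes, whose proteins carry the negative feedback, did not separate the groups. Per1, which also responds to glucocorticoid and to neuronal activity, had 78.2, 100.1 and 109 CPM in SNI Mef2c, 80.1, 94.7 and 104 in SNI Gfp, 81.7, 96.4 and 104 in Sham Mef2c and 66.7, 96.5 and 111 in Sham Gfp. The Sham Gfp range took in those of the other groups. Among the 6 comparisons the edgeR log2 fold change of Per1 was highest, at 0.06 (SE 0.10, adjusted p = 0.818), in SNI Mef2c against SNI Gfp, and without SNI Mef2c 1 it was 0.12 there (edgeR adjusted p = 0.539).

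Per2 had 23.4, 41.1 and 48.8 CPM in SNI Mef2c, 34.2, 38.6 and 48.1 in SNI Gfp, 38.4, 44.2 and 47.6 in Sham Mef2c and 32.9, 42.1 and 43.3 in Sham Gfp. Its low value belonged to SNI Mef2c 1 alone, and the log2 fold change of SNI Mef2c against Sham Mef2c was -0.14 (SE 0.12) with that library and -0.03 without it. Per3 had 40.5, 51.7 and 58.6 CPM in SNI Mef2c, 42.7, 47.5 and 61.8 in SNI Gfp, 39.9, 48.6 and 59.4 in Sham Mef2c and 42.6, 49.1 and 58.8 in Sham Gfp, and the 4 ranges had nearly the same extent.

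The other repressors of the CLOCK pair also overlapped between groups. Cry1, a cryptochrome, had 14.1, 25.1 and 30.2 CPM in SNI Mef2c, 22.2, 24.3 and 25.9 in SNI Gfp, 24.5, 25.4 and 26.2 in Sham Mef2c and 21.9, 23.7 and 26.0 in Sham Gfp. Both the lowest and the highest of the 24 libraries were in SNI Mef2c, and Sham Mef2c was the tightest group. The log2 fold change of Cry1 in SNI Mef2c against SNI Gfp was -0.01 (edgeR adjusted p = 0.984) with SNI Mef2c 1 and 0.11 (adjusted p = 0.301) without it. Ciart (CHRONO) had the fewest reads, with 5.87, 7.66 and 8.96 CPM in SNI Mef2c, 5.90, 7.07 and 7.67 in SNI Gfp, 6.09, 6.91 and 7.77 in Sham Mef2c and 5.21, 6.22 and 7.37 in Sham Gfp. Its log2 fold change was 0.13 (SE 0.07) for Mef2c against Gfp and 0.13 (SE 0.07) for SNI against Sham, with edgeR adjusted p of 0.333 and 0.420.

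Nr1d1, the gene of the REV-ERB alpha receptor that represses Arntl, gave the 1 call. It had 179, 193 and 221 CPM in SNI Mef2c, 169, 170.2 and 191 in SNI Gfp, 161, 171 and 186 in Sham Mef2c and 146, 160.2 and 181 in Sham Gfp. SNI Mef2c was the highest group and Sham Gfp the lowest, with overlap in each of the 4 pairwise comparisons. Over both surgeries, the 12 Mef2c libraries averaged 184 ± 16.1 CPM and the 12 Gfp libraries 168 ± 12.8 (SD, n = 12 each). Of the 12 Mef2c libraries, 9 lay above the Gfp median of 169 and 5 above the highest Gfp library. The log2 fold change was 0.13 (SE 0.04), with an edgeR adjusted p of 0.0294. In SNI Mef2c against SNI Gfp it was 0.16 (SE 0.05, edgeR adjusted p = 0.202) and in Sham Mef2c against Sham Gfp 0.10 (SE 0.05, edgeR adjusted p = 0.281), neither past the threshold.

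The Nr1d1 call depended on the scaling and on single libraries. With library size in place of TMM scaling the log2 fold change was 0.09 (edgeR adjusted p = 0.122). Leaving out each of the 24 libraries in turn gave 0.11 to 0.15, with adjusted p from 0.00838 to 0.0727. The call was lost without SNI Mef2c 3, SNI Gfp 1, 3, 5 or 6, Sham Mef2c 1, 2 or 3, or Sham Gfp 2, 3 or 6. Without SNI Mef2c 1, the highest library, the log2 fold change was 0.11 (edgeR adjusted p = 0.0282).

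Other transcripts were compared with the vector beside Nr1d1. Thra, whose span overlaps that of Nr1d1, had a log2 fold change of 0.08 (SE 0.03, edgeR adjusted p = 0.137) for Mef2c against Gfp. In the same comparison 14 of 14 interferon-induced genes, 9 of 9 lymphocyte markers and 6 of 8 microglia markers were lower with Mef2c, as were 7.87% of all genes, with 2 of 8 astrocyte markers and 1 of 9 vessel markers. Among them were the interferon regulator Irf7, the T cell gene Cd3e, the microglial receptor Csf1r, the astrocyte genes Aldh1l1 and Gfap, and Ly6c1. The mean interferon level was 1.22 to 1.93 on the log2 CPM scale in SNI Mef2c libraries and 1.44 to 4.95 in SNI Gfp, and 1.28 to 1.81 in Sham Mef2c and 3.81 to 5.74 in Sham Gfp. The summed level of the lymphocyte markers was 0.407 to 1.17 CPM in SNI Mef2c and 0.550 to 39.0 in SNI Gfp, and 0.446 to 1.44 in Sham Mef2c and 8.16 to 69.2 in Sham Gfp. Their part in the Nr1d1 difference was not tested, and in bulk tissue fewer cells of a type and less RNA per cell cannot be told apart.

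Nr1d1 also stood higher in each injured group than in its sham group, without passing the test. All 12 SNI libraries, at 169 to 221 CPM, lay above the median of the 12 Sham libraries, which ran from 146 to 186. The log2 fold change averaged over vectors was 0.15 (SE 0.04, edgeR adjusted p = 0.298), in a comparison where edgeR called no gene. It passed with DESeq2 (adjusted p = 0.0341), with limma-voom (adjusted p = 0.0398), and in edgeR when SNI Gfp 6 was left out (adjusted p = 0.0469). Nr1d2, the gene of the REV-ERB beta receptor, had 121, 126 and 142 CPM in SNI Mef2c, 114, 129 and 134 in SNI Gfp, 115, 131 and 139.8 in Sham Mef2c and 105, 120.3 and 129 in Sham Gfp. Its injury difference was 0.04 (SE 0.04, edgeR adjusted p = 0.669) and its vector difference 0.08 (SE 0.04, edgeR adjusted p = 0.348) on the log2 scale, and all 4 ranges overlapped.

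Dbp and Tef encode PAR-bZIP transcription factors, outputs of the loop that bind D-boxes, and Dbp is a strongly cycling transcript in many tissues. Dbp had 85.0, 109 and 118 CPM in SNI Mef2c, 87.4, 96.1 and 120.04 in SNI Gfp, 78.4, 90.0 and 105 in Sham Mef2c and 72.3, 88.4 and 104 in Sham Gfp. Of the 12 SNI libraries, 7 lay above the highest Sham library, and the ranges overlapped. The log2 fold change of SNI against Sham averaged over vectors was 0.20 (SE 0.07, edgeR unadjusted p = 0.00758, adjusted p = 0.305), and 0.23 without SNI Mef2c 1. Tef had 345, 478 and 496 CPM in SNI Mef2c, 349, 405 and 498 in SNI Gfp, 339.7, 403 and 476 in Sham Mef2c and 330.3, 398 and 468 in Sham Gfp. Apart from SNI Mef2c 1, the SNI Mef2c libraries lay in the upper end of the shared range, and the log2 fold change of SNI against Sham was 0.12 (SE 0.08, edgeR adjusted p = 0.526).

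The Dbp and Tef values were closer together between SNI and Sham when the striatal marker mean was a term of the fit. Those of Per2 were farther apart. The fit with this term was an alternative chosen after seeing the data. With the mean of the striatal markers as a covariate, the log2 fold change of SNI against Sham was 0.14 for Dbp (edgeR adjusted p = 0.221), 0.04 for Tef (0.466) and 0.03 for Npas2 (0.883), and without the covariate it was 0.20, 0.12 and 0.19. Nr1d1 had 0.15 for SNI against Sham (edgeR adjusted p = 0.221) and 0.13 for Mef2c against Gfp (adjusted p = 0.0258) with the covariate. For SNI against Sham, Per2 went from -0.07 to -0.16 with it (edgeR adjusted p = 0.221), and Cry1 had -0.10 (0.409). In SNI Mef2c against Sham Mef2c, Per2 had -0.30 with it (edgeR adjusted p = 0.255). The SNI against Sham values of Npas2, Cry1 and Nr1d1 depended most on SNI Mef2c 1, the library of lowest striatal mean. With the covariate and without that library, SNI against Sham was 0.11 for Dbp (edgeR adjusted p = 0.229), 0.01 for Tef (0.858), -0.11 for Npas2 (0.444) and 0.09 for Nr1d1 (0.229). It was -0.11 for Per2 (0.306) and 0.01 for Cry1 (0.944), and Mef2c against Gfp was 0.09 for Nr1d1 (0.0311). The striatal mean was 6.93 to 8.96 in SNI Mef2c, 7.67 to 8.86 in SNI Gfp, 7.36 to 8.75 in Sham Mef2c and 7.43 to 8.61 in Sham Gfp on the log2 CPM scale.

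Further genes of the loop passed at a rate near that of all genes. Of 20 other core clock genes, which include Arntl, Npas2, Cry2, the ROR receptors and casein kinases that phosphorylate PER, all were tested. In Mef2c against Gfp averaged over surgeries 1 was higher and 1 lower, against 1.28% and 7.87% of all genes (9.15% in either direction). In Sham Mef2c against Sham Gfp 1 was lower, against 7.93% of all genes. edgeR called none in the other 5 comparisons, where at most 0.00421% of all genes passed. Cry2, the other cryptochrome, averaged 124 ± 2.88 CPM in SNI Mef2c and 111 ± 6.44 in SNI Gfp, and 114 ± 8.62 in Sham Mef2c and 107 ± 6.30 in Sham Gfp (SD, n = 6 each). It rose by 0.12 on the log2 scale (SE 0.03, edgeR adjusted p = 0.0238) in Mef2c against Gfp, though the gene D930015M05Rik covers 77.0% of its span on the other strand. At that gene's mean density 31.3% of the Cry2 counts would fall there. D930015M05Rik had a log2 fold change of 0.11 (SE 0.04, edgeR adjusted p = 0.0710) in the same comparison. Timeless, related by sequence to a fly clock gene and active at replication forks in mammals, averaged 4.02 ± 0.495 CPM in Sham Mef2c and 5.96 ± 1.45 in Sham Gfp. It was lower there by a log2 fold change of -0.57 (SE 0.15, edgeR adjusted p = 0.0156), and by -0.35 (adjusted p = 0.0391) averaged over surgeries.

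Of 10 output genes of the clock, 1 was lower in Sham Mef2c against Sham Gfp and in the average over surgeries, where 7.93% and 7.87% of all genes were lower, so that this count and the next 2 lay near the share of all genes. This was Nampt, an enzyme of NAD synthesis, which averaged 64.6 ± 3.06 CPM in Sham Mef2c and 91.4 ± 17.2 in Sham Gfp (SD, n = 6 each), a log2 fold change of -0.50 (SE 0.09, edgeR adjusted p = 0.000806). Of 10 genes that follow body temperature, 1 passed in Sham Mef2c against Sham Gfp, Rbm3, a cold-induced RNA-binding protein, with 33.8 ± 2.99 CPM in Sham Mef2c and 40.1 ± 3.25 in Sham Gfp and a log2 fold change of -0.25 (SE 0.08, edgeR adjusted p = 0.0434). Of 14 glucocorticoid receptor and response genes, 1 passed there, the cell cycle inhibitor Cdkn1a. It had 11.9 ± 2.47 CPM in Sham Mef2c and 19.4 ± 7.41 in Sham Gfp, a log2 fold change of -0.71 (SE 0.21, edgeR adjusted p = 0.0364). Of 15 immediate early genes, which mark recent neuronal activity, edgeR called none in the 7 comparisons, and at an unadjusted p under 0.05 there was 1, in Mef2c against Gfp averaged over surgeries, against 19.6% of all genes. Median log2 fold changes in Sham Mef2c against Sham Gfp were 0.05 for the output genes, 0.04 for the temperature genes, 0.07 for the glucocorticoid genes and -0.26 for the immediate early genes, against 0.02 over all genes. The temperature list holds cold-induced and heat shock genes together, so its median has no direction.

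A measure that sets 8 clock genes against 4 others had overlapping ranges in the groups. It was the mean log2 CPM of 8 genes (Per1, Per2, Per3, Dbp, Nr1d1, Nr1d2, Tef, Ciart) minus that of 4 (Arntl, Npas2, Clock, Cry1). It averaged 0.37 ± 0.11 in SNI Mef2c, 0.43 ± 0.13 in SNI Gfp, 0.41 ± 0.13 in Sham Mef2c and 0.36 ± 0.14 in Sham Gfp (SD, n = 6 each). The ranges were 0.20 to 0.49 in SNI Mef2c, 0.22 to 0.56 in SNI Gfp, 0.18 to 0.55 in Sham Mef2c and 0.19 to 0.52 in Sham Gfp, so that each group held most of the spread. Without Npas2, which varies most, the means were 0.62 in SNI Mef2c, 0.61 in SNI Gfp, 0.56 in Sham Mef2c and 0.53 in Sham Gfp. The order of the groups thus changed, with both SNI means above both Sham means. The ranges still overlapped, at 0.54 to 0.76 in SNI Mef2c, 0.51 to 0.77 in SNI Gfp, 0.37 to 0.67 in Sham Mef2c and 0.42 to 0.74 in Sham Gfp. The measure gives no clock time, since no library of known hour was used.

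**Figure D3:**
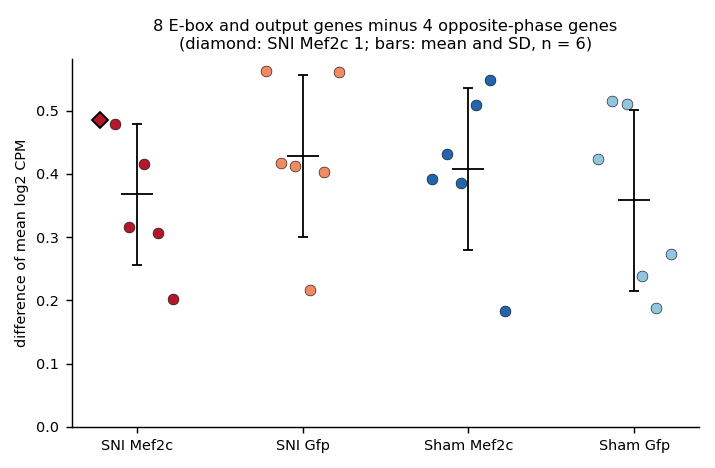
Mean log2 CPM of 8 clock genes minus that of 4 others (y axis, from 0) per library in the 4 groups (x axis), with the mean and SD of 6 libraries. All 24 libraries lie between 0.18 and 0.56 and the groups overlap.

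Across libraries, several of these genes moved with the mean level of striatal neuron markers. The relation with the mean of the 10 striatal markers was computed for the 10 genes and for Arntl, Npas2 and Cry2, 13 relations chosen after the values were seen. Permutation p were two-sided, from 100000 resamples over 24 libraries, and adjusted over the 13. Pearson's r was 0.94 for Tef and 0.92 for Npas2 (Spearman's rho 0.95 and 0.88), 0.82 for Per1 and 0.82 for Dbp (rho 0.78 and 0.83), 0.71 for Per2 (rho 0.52) and 0.67 for Per3 (rho 0.63). The adjusted permutation p of r was 3.25e-05 for Tef, Npas2, Per1 and Dbp, from the smallest p that these permutations can give, 0.000234 for Per2 and 0.00078 for Per3. Without SNI Mef2c 1 and Sham Mef2c 4, the libraries farthest from the median, r was 0.96 for Tef, 0.95 for Npas2, 0.80 for Per1, 0.85 for Dbp, 0.58 for Per2 and 0.55 for Per3.

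The remaining genes followed the striatal markers less closely, or their r turned on those libraries. Cry1 had r = 0.59 (rho 0.27) with all libraries and 0.34 without them, so its relation rested on them. Nr1d1 had r = 0.23 (rho 0.50, adjusted permutation p of r = 0.370) with all and 0.70 without them, and SNI Mef2c 1 had both the lowest striatal mean and the highest Nr1d1. Clock had r = 0.45 (rho 0.55), Cry2 0.50 (rho 0.62) and Arntl 0.13 (rho 0.27), and without those libraries r was 0.67, 0.82 and 0.39. Nr1d2 at -0.04 and Ciart at -0.03 showed no relation past the threshold, with adjusted permutation p of 0.884 each.

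**Figure D4:**
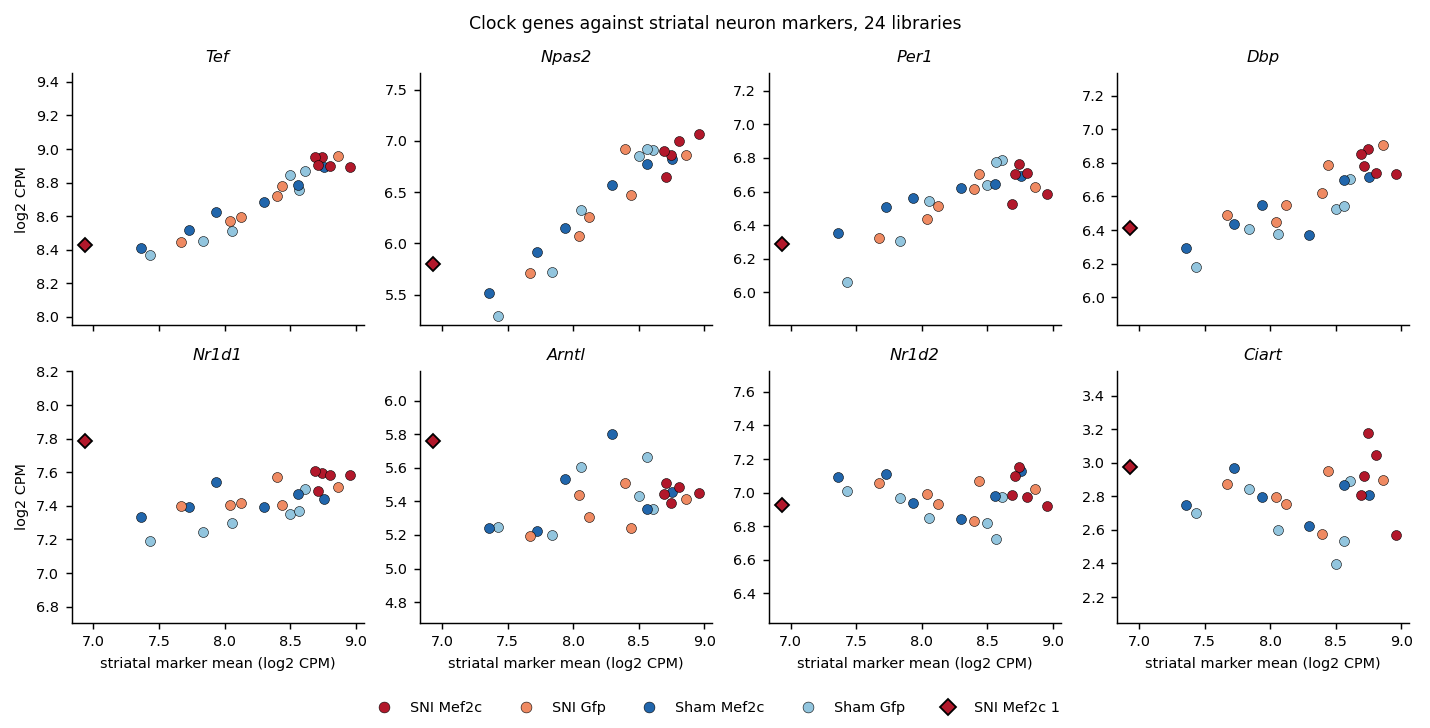
Log2 CPM of 8 clock genes (y axes) against the mean log2 CPM of 10 striatal neuron markers (x axis) in 24 libraries, coloured by group, SNI Mef2c 1 as a diamond. Tef and Npas2 climb along the axis (r = 0.94 and 0.92), while Nr1d2 and Ciart stay flat (r = -0.04 and -0.03).

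Pairs of clock genes were then compared with each other, 8 relations over 24 libraries with permutation p adjusted over the 8. Dbp followed Tef (r = 0.91, rho = 0.90) and Per3 (r = 0.75, rho = 0.71), with adjusted permutation p of r of 8.00e-05 and 0.000107. Per1 followed Fkbp5, a glucocorticoid-induced gene (r = 0.76, rho = 0.78), and Per2 (r = 0.70, rho = 0.65), with adjusted permutation p of r of 8.00e-05 and 0.001. Without the 2 libraries farthest from the median of the first gene, r was 0.88 for Dbp with Tef, 0.71 for Dbp with Per3, 0.75 for Per1 with Fkbp5 and 0.67 for Per1 with Per2. Dbp with Ciart (r = 0.38, rho = 0.42), Per1 with the activity gene Fos (r = 0.22, rho = 0.32), Nr1d1 with Nr1d2 (r = 0.04, rho = 0.06) and Dbp with Arntl (r = 0.01, rho = 0.05) had adjusted permutation p of r from 0.102 to 0.964.

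The 8 pairs were also compared once group means and the striatal mean were taken out of each gene, a step added after seeing the data. The permutations treated the 24 deviations as independent although those terms had been fitted, so the permutation p given here may be too small. The deviations of Dbp and Per3 still moved together, with r = 0.76 (rho 0.79, adjusted permutation p = 8.00e-05), and those of Dbp and Tef with r = 0.67 (rho 0.69, adjusted permutation p = 0.0014). Dbp and Ciart, not past the threshold before, had r = 0.62 (rho 0.62, adjusted permutation p = 0.00376). Per1 and Fkbp5 had r = 0.24 (rho 0.25) and Per1 and Per2 r = 0.13 (rho 0.26), with adjusted permutation p of r of 0.283 and 0.557. Without SNI Mef2c 1 these were -0.09 and 0.42. Per1 and Fos had r = 0.44 (rho 0.44), Nr1d1 and Nr1d2 r = -0.41 (rho -0.40) and Dbp and Arntl r = -0.29 (rho -0.22), with adjusted permutation p of r of 0.0629, 0.0732 and 0.222. Without SNI Mef2c 1 these were 0.49, -0.23 and -0.63, and without Sham Mef2c 6 and Sham Gfp 1 Dbp and Arntl had -0.05. Without Sham Mef2c 6 and Sham Gfp 1, the libraries farthest from the median of Dbp, r was 0.74 for Dbp with Per3, 0.66 with Tef and 0.53 with Ciart. Without SNI Mef2c 1 it was 0.75 with Per3, 0.61 with Tef and 0.66 with Ciart.

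Among all 78 pairs of the 13 genes, given as a description chosen after the values were seen, the deviations of Nr1d2 moved with those of Ciart (r = 0.70) and Per3 (r = 0.66) and against those of Arntl (r = -0.75). Without SNI Mef2c 1 these were 0.74, 0.78 and -0.71. Nr1d1, by contrast, had r = 0.46 with Arntl, and 0.05 without that library. Per3 and Ciart had r = 0.67 and Per2 and Cry1 r = 0.77, whereas Nr1d1 and Npas2 had 0.82 with that library and 0.61 without it. The points share library and depth, and Per3 and Ciart may share reads with neighbours.

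Single libraries of each group are given as examples of this pattern. The deviations have the group means taken out, so each group holds libraries on both sides by construction. The CPM given here have neither group means nor the striatal mean taken out. In SNI Mef2c, library 2 had 142 CPM of Nr1d2, 8.96 of Ciart and 58.6 of Per3, and library 6 had 121, 5.87 and 44.2. In SNI Gfp, library 6 had 134, 7.67 and 59.8 CPM of these genes, and library 4 had 114, 5.90 and 42.7. Sham Mef2c 6 was low in Nr1d2 and Ciart, with 115 and 6.09 CPM, and had the highest Arntl of all, 55.6 CPM. Sham Gfp 1 stood at 125 CPM of Nr1d2 and 7.37 of Ciart, with 40.9 CPM of Arntl. As log2 deviations, Ciart ran from -0.32 in SNI Mef2c 6 to 0.27 in SNI Mef2c 2, Per3 from -0.30 in SNI Mef2c 6 to 0.21 in SNI Gfp 6, and Arntl from -0.21 in Sham Gfp 2 to 0.36 in Sham Mef2c 6. Not every library followed the pattern. In SNI Mef2c 6 both Nr1d2 (-0.08) and Arntl (-0.07) deviated downward. SNI Mef2c 5 had Ciart at 0.15 with Nr1d2 at -0.03 and Per3 at -0.13. The part of collection time in these differences was not tested, since the labels give no hour for a library.

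**Figure D5:**
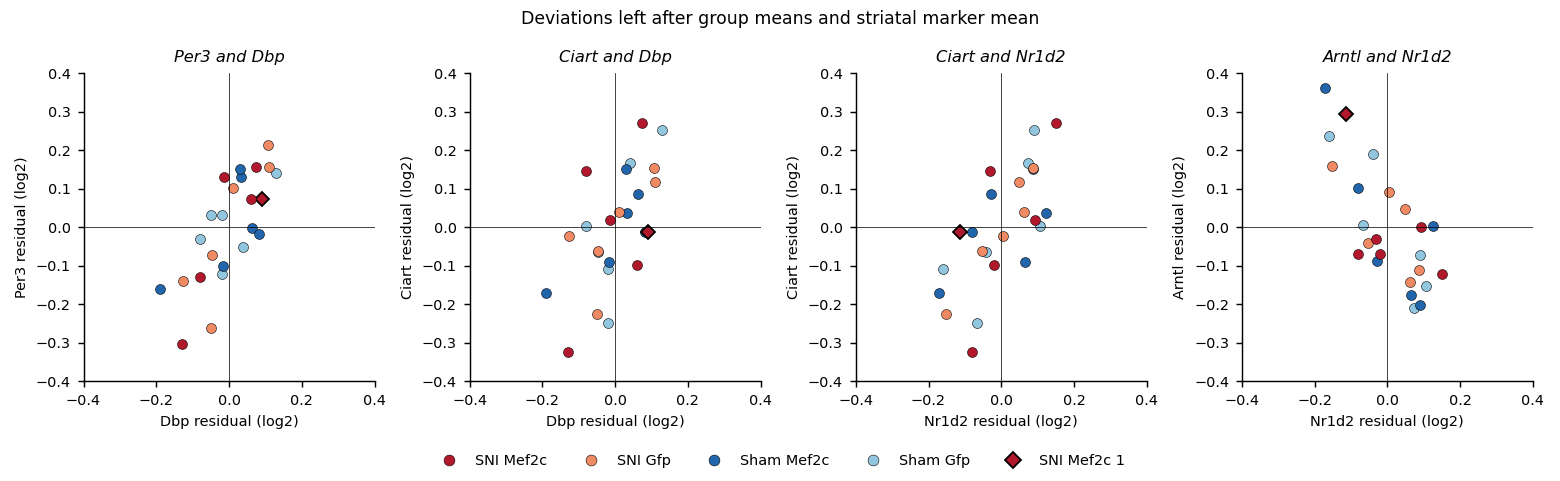
Log2 deviations of pairs of clock genes (x and y axes) left after group means and the striatal marker mean were taken out, 1 point per library, coloured by group. Per3 and Ciart climb with Dbp (r = 0.76 and 0.62) and Ciart with Nr1d2 (r = 0.70), and Arntl falls against Nr1d2 (r = -0.75). Each group is centred by construction, so the spread of groups along the trend is no result.

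The genes most like Dbp and Per1 over the libraries were mainly not clock genes. By Pearson's r of deviations from the group means in 24 libraries, Tef ranked the first of 13756 genes for Dbp (r = 0.92), and among the next were Fam214a, Otud4, Adamts3, Rev1, Rai1 and Slc16a3 (0.90 to 0.92), while Mturn, Mta3 and Sh2d3c were among those that ran opposite (-0.91 to -0.89). For Per1 the nearest were Cwc22, Kif17, Krt9, Slc24a4, Adamts3, Traip, Asb11 and Nmnat3 (0.90 to 0.91), and Npas2 had rank 9, with r = 0.90. Tubb3, Ap3s2, Arhgap35, Katnal1 and Pkp4 ran opposite to Per1 (-0.92 to -0.91). The genes named as nearest had an r of 0.83 to 0.96 with the striatal marker mean in the same deviations.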

How the data were processed

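RNA of bilateral accumbens punches was extracted with TRIzol and made into libraries with a stranded mRNA kit, per the labels' protocols. Per the submitters' processing notes, featureCounts and the mm10 build were used. The authors deposited whole-number counts per Ensembl gene and FPKM values. In 42625 of 42625 genes compared, the deposited FPKM fits count over library total and gene span, introns included, to within 0.5 bases of span. Strand use in counting is not given in the sources used here. Symbols came from the GENCODE annotation by Ensembl identifier, for 55141 of 55401 genes.

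Counts were fitted with edgeR 4.0.16 (R 4.3.3): TMM scaling, its expression filter (23738 genes), quasi-likelihood test, 4 groups in 1 fit with 20 residual degrees of freedom, Benjamini-Hochberg adjustment over all genes. Log2 CPM used a prior count of 2. Correlations used 100000 permutations (scipy 1.17.1). The fit was tested on simulated counts. Alternatives were scaling, filters, DESeq2 1.42.0, limma 3.58.1 (voom, and log2 of FPKM + 1 or + 0.1), a replicate block, marker covariates and leaving out libraries.

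The genes and lists were chosen with earlier results of these data known. Named were the 10 clock genes in every comparison, Arntl, Npas2, Cry2 and Thra, genes overlapping them, up to 4 genes per list and comparison that passed, by smallest p (for the interferon, lymphocyte and microglia lists 1 of these each), and the 8 genes of highest and 5 of lowest r with Dbp and Per1, of which some are not reported here.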

Additional observations from a re-analysis of the deposited data

Results flagged for a closer look

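In 6 of 56 tests of a gene in a group of 6 libraries, the highest or lowest library lay farther from the next than Dixon's critical value of 0.625 of the group's range allows, where chance gives about 1 in 20. All 6 fell on SNI Mef2c 1. The tests share libraries and several of these genes moved together, so the 6 are not separate events and that rate does not measure how rare they are jointly. It was the lowest SNI Mef2c library for Per2 at 4.55 log2 CPM (23.4 CPM), Dbp at 6.41 (85.0 CPM), Cry1 at 3.82 (14.1 CPM), Tef at 8.43 (345 CPM) and Npas2 at 5.80 (55.5 CPM), and the highest for Arntl at 5.76 (54.2 CPM). It also had the lowest striatal marker mean of the 24 libraries, 6.93 log2 CPM, and the highest cortical marker mean, 5.59. The part of tissue content in these values was not tested.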

How the results depend on the processing

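The count of the 10 genes called stayed 0 in SNI Mef2c against SNI Gfp, SNI Mef2c against Sham Mef2c, SNI Gfp against Sham Gfp and the interaction under every alternative that gave a value. In Mef2c against Gfp, where edgeR called 1 (Nr1d1), it was 0 with library size alone (adjusted p of Nr1d1 0.122), with at least 1 CPM in 6 libraries (0.0506), with any count (0.0790), and with limma on log2(FPKM + 1) (0.118) or log2(FPKM + 0.1) (0.119). It was 2, Nr1d1 and Clock, with DESeq2 and with limma-voom, and 0 to 2 when single libraries were left out. Without Sham Mef2c 2, or 2 and 5, the 1 call was Clock, and edgeR's adjusted p of Nr1d1 without both was 0.0571. In SNI against Sham the count was 1 (Nr1d1) with DESeq2 and limma-voom and 0 to 1 with single libraries left out, the 1 without SNI Gfp 6. DESeq2 gave Ciart no adjusted p there. In Sham Mef2c against Sham Gfp it was 1 (Nr1d1) in edgeR with a cortical marker covariate (adjusted p = 0.0429), or with a striatal one and SNI Mef2c 1 left out (adjusted p = 0.0331). The cause was not tested. With group means and the striatal marker mean taken out, the correlation of Dbp and Ciart gained the threshold at r = 0.62, and those of Per1 with Per2 (r = 0.13) and with Fkbp5 (r = 0.24) lost it.

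With the replicate number as a block, edgeR called 1 gene of the 10 in Mef2c against Gfp, again Nr1d1 (log2 fold change 0.13, adjusted p = 0.0421), and 0 in the other comparisons. The numbers share no stated source: over 36 same-numbered pairs the median correlation of deviations was -0.02 (range -0.51 to 0.32), 9 were over 0.1, and 1 of 24 libraries correlated best with its own number.

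Over all genes the tools differed: in SNI Gfp against Sham Gfp edgeR called 0, DESeq2 553 and limma-voom 2777, in SNI Mef2c against SNI Gfp 1, 438 and 13, in SNI against Sham 0, 40 and 909, in SNI Mef2c against Sham Mef2c 0, 13 and 0, and in Sham Mef2c against Sham Gfp 2233, 2594 and 4412. Ciart, the gene with the fewest reads, is the one whose precision depth limits most.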

Other observations

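The interaction of surgery and vector passed for none of the 10 genes in edgeR, with a smallest adjusted p of 0.553, and at an unadjusted p under 0.05 there were 0. Over all genes edgeR called 0 for the interaction, with 3529 at an unadjusted p under 0.05, DESeq2 called 1 and limma-voom with quality weights 4074, and edgeR 269 without SNI Gfp 6.

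Nr1d1 and Nr1d2, receptors of the same loop, had no relation past the threshold: r was 0.04 over the 24 libraries, -0.42 for deviations from the group means, and -0.41 with the striatal mean also taken out (adjusted permutation p = 0.0732), or -0.23 without SNI Mef2c 1.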
